A study of Mus musculus with 6 samples.

Results

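The imprinted growth genes H19, Igf2, Igf2r, Meg3, Dlk1, Peg3, Mest, Cdkn1c, Plagl1 and Grb10 were followed by RNAseq in mammary tumors of NeuT/ATTAC mice. They were taken as the 10 rows, of 54532 Ensembl gene IDs in the values of each tumor, whose ID maps to these symbols in the mouse annotation (GRCm38), whatever their level. All 10 were found, 8 were high enough to be tested (mean of at least 0.5 FPKM over the tumors), and Dlk1 and Igf2 were not.

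NeuT/ATTAC mice carry MMTV-NeuT, which expresses Erbb2 (NeuT) from the mouse mammary tumor virus promoter mainly in mammary epithelium. They also carry FAT-ATTAC, a transgene brought from C57BL/6 into the FVB strain, with which the dimerizer AP20187 kills adipocytes and so leaves a fibrotic mammary stroma. Both groups were given AP20187 (0.4 mg/kg, started at 6 weeks of age), so that no tumor without induced fibrosis was among these samples. Antibody injections of 100 μg began at 8 weeks of age, with an isotype-specific IgG (3 tumors) or with anti-PD-1 mAb, which blocks the PD-1 checkpoint receptor of T cells (3 tumors), and the comparison asks how tumors under anti-PD-1 differed from tumors under IgG.

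Imprinted genes are read from only 1 parental allele, chosen by DNA methylation set in the germ line. Paternally expressed genes of this kind (Igf2, Dlk1, Peg3, Mest, Plagl1) tend to favour growth of the embryo, and maternally expressed ones (H19, Igf2r, Cdkn1c, Grb10) tend to hold it back. Most are turned down after birth, and several return in regenerating tissue and in tumors. RNA levels as measured here sum both alleles, so that imprinting itself was not measured.

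Levels are given as FPKM (fragments scaled by the exon length of the gene and by library size), divided by a median-of-ratios factor of between 1.00 and 1.01 for each tumor. Whole reads could be recovered for most genes, at 21075641 to 23852764 reads per tumor, and 3 reads on 2 kb of exon corresponded to 0.0586 to 0.0682 FPKM. The label of a mammary tumor was checked on luminal epithelial markers: Epcam lay between 683 and 1142 FPKM and Erbb2 between 20.2 and 31.3 FPKM. Of 6 adipocyte markers, Fabp4, which other cells also express, lay between 1.34 and 5.63 FPKM, while the other 5 were too low to be tested (Adipoq at most 1.18 FPKM and Lep at most 0.0250 FPKM). The 6 skeletal muscle markers summed to 1.59, 137 and 5.33 FPKM in the IgG tumors (here and below in the order of replicates 1 to 3) and to 75.5, 148 and 0.641 FPKM in the anti-PD-1 tumors, so that IgG replicate 2 and anti-PD-1 replicates 1 and 2 stood apart in muscle RNA. In bulk tumors, fewer cells of a type and less RNA per cell cannot be told apart.

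Differences between the groups are log2(FPKM + 1) in anti-PD-1 minus log2(FPKM + 1) in IgG, a scale that understates changes of genes near or under 1 FPKM. They were tested with limma over 15069 genes, two-sided, with Benjamini-Hochberg adjustment over all of them. At an adjusted p under 0.05 limma called 0 of the 15069 genes (0%), against 1848 (12.3%) at an unadjusted p under 0.05, and limma's voom on the recovered reads called 1 gene at the adjusted level. With 3 tumors in each group, 0.1 is the smallest p of the exact permutation test. The labels name separate replicates, while the study speaks of pooled RNA within groups, so the p-values measure only the spread between these 6 samples.

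All 8 members tested had a positive difference, where 50.8% of all tested genes did. Of the 8, Meg3 reached the limit for testing only through its anti-PD-1 mean. With no filter on low FPKM, the members not tested had log2(FPKM + 1) differences of -0.055 (Dlk1) and -0.00013 (Igf2). Only H19 was called at an unadjusted p under 0.05 in the higher direction (1 of 8, beside 6.22% of all tested genes), and none at an adjusted p under 0.05. Igf2r was the 1 member whose groups did not overlap, with anti-PD-1 higher (1 of 8, beside 9.3% of all tested genes). The median difference of the 8 members was 0.44 on the log2(FPKM + 1) scale, and that of all tested genes was 0.01. Cdkn1c and Meg3, with the smallest differences on the log2(FPKM + 1) scale, turned negative when single tumors were left out, as given below for each.

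Of 5 macrophage markers, Cd68, a lysosomal protein of macrophages, was past the unadjusted threshold in the higher direction (1 of 5, beside 6.22% of all tested genes, log2(FPKM + 1) difference 0.76). The 5 markers summed to 38.8, 42.6 and 35.9 FPKM in the IgG tumors and to 50.2, 47.5 and 66.4 FPKM in the anti-PD-1 tumors. These sums did not overlap between the groups, which rested on Cd68: without it, a sum taken after the values were seen, the other 4 gave 20.7, 27.6 and 22.2 FPKM against 28.1, 17.1 and 37.3 FPKM, with anti-PD-1 replicate 2 the lowest of all. The part of macrophages in the levels of the imprinted genes was not tested. Of the 6 luminal markers, 4 had a positive difference (median 0.34), and the groups did not overlap for 2 higher genes (Erbb2 and Epcam) and 1 lower gene (Krt19), beside 9.3% and 8.75% of all tested genes. At the unadjusted level 1 of 6 luminal markers (Krt19) and 1 of 3 tested basal markers (Krt17) were lower and 1 of 3 tested cartilage markers (Cnmd) was higher, beside 6.05% and 6.22% of all tested genes, and no fibroblast, endothelial, muscle or Schwann cell marker was called.

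**Figure D1:**
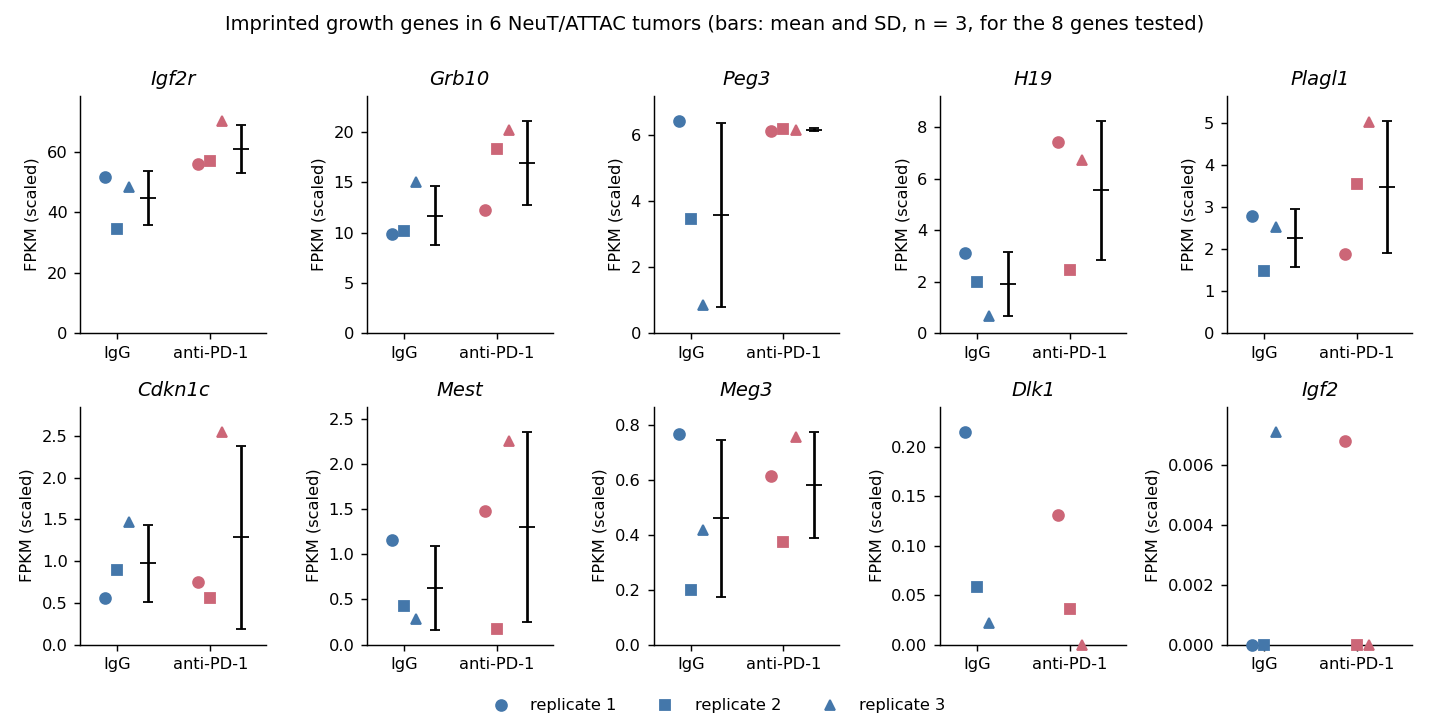
Level of each of the 10 genes in each tumor (y axis, scaled FPKM from 0, a separate scale in each panel), with IgG in blue and anti-PD-1 in red on the x axis; black bars give the mean and SD of 3 tumors for the 8 genes tested. For Igf2r the 3 anti-PD-1 tumors (55.8 to 70.05 FPKM) all lie above the 3 IgG tumors (34.4 to 51.5 FPKM), while the points of the other genes overlap between groups.

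The members differed widely in level. Igf2r had the highest mean over the 6 tumors (52.8 FPKM, at the 94.1 percentile of the tested genes), followed by Grb10 (14.3 FPKM), Peg3 (4.87 FPKM), H19 (3.73 FPKM), Plagl1 (2.86 FPKM), Cdkn1c (1.13 FPKM), Mest (0.963 FPKM), Meg3 (0.520 FPKM), Dlk1 (0.0770 FPKM) and Igf2 (0.00232 FPKM). Each neighbour in this order was above the next in 6 of 6 tumors for Igf2r over Grb10, Grb10 over Peg3, Plagl1 over Cdkn1c and Meg3 over Dlk1. Peg3 and H19, H19 and Plagl1, Cdkn1c and Mest, and Mest and Meg3 changed places in 2 of 6 tumors, so their order was not separated from the spread between tumors. Most values fell on whole reads with the merged length of all annotated exons, so that length was taken as the divisor of FPKM. It is long for Meg3 (18089 bases) and Peg3 (13324 bases).

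H19 and Igf2 are neighbours on chromosome 7 that share enhancers and 1 methylated control region, H19 being read from the maternal allele and Igf2, a growth factor of the embryo, from the paternal one. H19 (ENSMUSG00000000031) is a long noncoding RNA at 7:142575529-142578143 on the minus strand, and Igf2 (ENSMUSG00000048583) lies 72622 bases away at 7:142650766-142666816 on the same strand. H19 also hosts miR-675, whose mature arms are printed because H19 was the only member called at the unadjusted level. They are RefSeq sequences (GRCm38.p6) at 7:142577112-142577133 for the 5p arm and 7:142577078-142577099 for the 3p arm, both on the minus strand and inside the H19 gene. Capitals mark the seed, bases 2 to 8.
mmu-miR-675-5p: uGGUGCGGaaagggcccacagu
mmu-miR-675-3p: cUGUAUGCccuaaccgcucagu
The arms do not share a seed, and no other of the 1679 mature miRNAs in the table had either seed. Mir675, and likewise the hosted miRNA genes Mir483 (in Igf2), Mir335 (in Mest) and Mir770 (in Meg3), were listed at 0 FPKM in all 6 tumors. Reads shared with the host genes cannot be told apart, so these values do not tell whether the mature miRNAs were present.

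H19 measured 3.11, 1.98 and 0.660 FPKM in the IgG tumors and 7.45, 2.46 and 6.74 FPKM in the anti-PD-1 tumors, on 40 to 470 reads. Anti-PD-1 replicates 1 and 3 were above every IgG tumor, anti-PD-1 replicate 2 was below IgG replicate 1, and IgG replicate 3 was far below the rest. The means were 1.92 ± 1.23 FPKM in IgG and 5.55 ± 2.70 FPKM in anti-PD-1 (SD, n = 3), a log2(FPKM + 1) difference of 1.16 (SE 0.44, 95% confidence interval 0.12 to 2.20). The unadjusted limma p was 0.0337 and the exact permutation p of the log2 values was 0.2, and the Benjamini-Hochberg adjusted limma p was 0.380. The unadjusted call was lost when any of 4 tumors was left out: the difference was then 0.80 (IgG replicate 3), 1.22 (IgG replicate 2), 0.92 (anti-PD-1 replicate 1) or 0.99 (anti-PD-1 replicate 3), with limma adjusted p between 0.516 and 0.760. It was also lost with no filter on low FPKM, where the difference stayed at 1.16 (limma adjusted p = 0.619). Within the groups H19 spread widely, with a pooled SD of log2(FPKM + 1) at the 90.6 percentile of 3039 genes of like level.

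Igf2 was not detected at this depth beyond single reads. It held 1 read in IgG replicate 3 and 1 read in anti-PD-1 replicate 1, and 0 in the other 4 tumors, where a count of 0 allows up to 3 reads, or between 0.0216 and 0.0238 FPKM for its 5723 bases of exon (counting error only). The H19 gene thus had 1342 reads over the 6 tumors and Igf2 had 2.

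Igf2r, the cation-independent mannose 6-phosphate receptor, carries IGF-II and lysosomal enzymes to the lysosome. In mouse it is read from the maternal allele, and Airn, a noncoding RNA that starts inside Igf2r on the opposite strand, is read from the paternal allele and keeps that Igf2r copy off. Igf2r (ENSMUSG00000023830) lies at 17:12682406-12769664 on the minus strand, and Airn (ENSMUSG00000078247) at 17:12741311-12860136 on the plus strand, overlapping it by 28354 bases. Both start regions are printed from RefSeq (GRCm38.p6), 250 bases before to 50 bases after each start, because they are the opposed promoters of the only member whose groups did not overlap. Capitals mark matches on either strand to GGGCGG (the GC box of Sp1 factors), TGACGTCA (the cyclic AMP response element), CACGTG (an E-box), TATAAA (a core promoter box) and CCAAT (bound by NF-Y). The Igf2r window is chr17:12769657-12769956, minus strand, and the Airn window is chr17:12741061-12741360, plus strand, inside the Igf2r gene.
Igf2r: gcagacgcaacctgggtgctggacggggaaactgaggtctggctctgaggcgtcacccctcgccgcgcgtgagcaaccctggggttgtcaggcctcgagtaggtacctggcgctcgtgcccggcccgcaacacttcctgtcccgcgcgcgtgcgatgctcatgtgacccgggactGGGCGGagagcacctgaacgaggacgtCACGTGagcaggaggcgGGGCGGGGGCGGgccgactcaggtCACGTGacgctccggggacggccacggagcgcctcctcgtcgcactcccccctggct
Airn: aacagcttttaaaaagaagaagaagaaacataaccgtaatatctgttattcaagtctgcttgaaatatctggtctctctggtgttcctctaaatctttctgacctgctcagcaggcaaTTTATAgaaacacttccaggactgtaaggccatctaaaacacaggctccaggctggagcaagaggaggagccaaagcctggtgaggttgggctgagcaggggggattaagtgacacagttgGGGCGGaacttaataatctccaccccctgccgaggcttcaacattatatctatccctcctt
The Igf2r window held 34 CpG dinucleotides and the Airn window 3, where the median of 32851 RefSeq windows of this length was 7. The Igf2r window held GGGCGG (found in 35.7% of all windows) 3 times and CACGTG (7.15%) 2 times, and 2 of its GGGCGG matches adjoin. The Airn window held GGGCGG 1 time and the reverse complement of TATAAA (13.6%) 1 time.

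Igf2r measured 51.5, 34.4 and 48.1 FPKM in the IgG tumors and 55.8, 56.9 and 70.05 FPKM in the anti-PD-1 tumors, on 7750 to 15578 reads. Every anti-PD-1 tumor was above every IgG tumor, with the narrowest gap between anti-PD-1 replicate 1 and IgG replicate 1. The means were 44.7 ± 9.03 and 60.9 ± 7.91 FPKM (SD, n = 3), a log2(FPKM + 1) difference of 0.45 (SE 0.20, 95% confidence interval -0.02 to 0.93). The limma p of 0.0591 (Benjamini-Hochberg adjusted p = 0.421) did not pass, and the exact permutation p was 0.1, the smallest possible. Without IgG replicate 2, the lowest tumor, the difference was 0.28 (limma adjusted p = 0.776), and without IgG replicate 1 it was 0.56 (limma adjusted p = 0.258) and past the unadjusted threshold.

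Airn measured 6.06, 4.62 and 4.50 FPKM in the IgG tumors and 4.49, 9.95 and 11.3 FPKM in the anti-PD-1 tumors. Anti-PD-1 replicates 2 and 3 were above every IgG tumor, and anti-PD-1 replicate 1 was below them all. The log2(FPKM + 1) difference of 0.58 did not pass the limma test (adjusted p = 0.481). It was 0.36 without anti-PD-1 replicate 3 and 0.94 without anti-PD-1 replicate 1, where it passed the unadjusted threshold. Whether the reads were counted by strand is not given in the sources used here, so reads from the stretch shared by Igf2r and Airn cannot be told apart.

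Grb10 is an adaptor that binds the insulin and IGF receptors and dampens their signalling. Grb10 (ENSMUSG00000020176, 11:11930508-12038683, minus strand) measured 9.83, 10.1 and 15.1 FPKM in the IgG tumors and 12.2, 18.3 and 20.2 FPKM in the anti-PD-1 tumors, on 1982 to 4382 reads. Anti-PD-1 replicates 2 and 3 were above every IgG tumor, and anti-PD-1 replicate 1 was below IgG replicate 3. The means were 11.7 ± 2.93 and 16.9 ± 4.17 FPKM (SD, n = 3), and the log2(FPKM + 1) difference was 0.49 (SE 0.24, limma p = 0.0824, Benjamini-Hochberg adjusted p = 0.449, exact permutation p = 0.2). It ran from 0.36 to 0.70 as each tumor was left out, and it was past the unadjusted threshold without IgG replicate 3 (limma adjusted p = 0.488) and without anti-PD-1 replicate 1 (limma adjusted p = 0.433). Its RefSeq start window at 11:12037371-12037670 held 45 CpG dinucleotides, the most among the members' windows.

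Plagl1 encodes a zinc finger transcription factor that slows the cell cycle and regulates other imprinted genes. Plagl1 (ENSMUSG00000019817, 10:13060504-13131694, plus strand) measured 2.78, 1.47 and 2.52 FPKM in the IgG tumors and 1.87, 3.54 and 5.01 FPKM in the anti-PD-1 tumors. As for Grb10 and Airn, anti-PD-1 replicates 2 and 3 were the highest tumors and anti-PD-1 replicate 1 lay among or below the IgG tumors. The log2(FPKM + 1) difference was 0.42 (SE 0.31, limma p = 0.217, exact permutation p = 0.4). It was 0.17 without anti-PD-1 replicate 3 and 0.70, past the unadjusted threshold, without anti-PD-1 replicate 1 (limma adjusted p = 0.440).

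Cdkn1c encodes p57Kip2, an inhibitor of cyclin-dependent kinases that stops the cell cycle during differentiation. Cdkn1c (ENSMUSG00000037664, 7:143458339-143461050, minus strand) measured 0.553, 0.893 and 1.47 FPKM in the IgG tumors and 0.746, 0.563 and 2.55 FPKM in the anti-PD-1 tumors, on 25 to 124 reads. Only anti-PD-1 replicate 3 was above the IgG tumors. The log2(FPKM + 1) difference of 0.14 (SE 0.36, limma adjusted p = 0.897) became -0.23 without anti-PD-1 replicate 3 and -0.02 without IgG replicate 1. Its neighbour Phlda2, a maternally expressed gene that limits placental growth, had a difference of 0.07, which ran from -0.31 without anti-PD-1 replicate 3 to 0.41 without anti-PD-1 replicate 2 and was also negative without IgG replicate 1 (-0.02) or IgG replicate 2 (-0.03). Kcnq1ot1, the noncoding RNA that silences this domain on the paternal allele, lay between 0.164 and 0.367 FPKM and was under the limit for testing. These values stand for 392 to 816 reads, spread over 93092 bases of exon.

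Cdkn1a (ENSMUSG00000023067), the unimprinted paralog of Cdkn1c that encodes p21, was the 1 gene called at the unadjusted level among 5 tested paralogs of the members (1 higher, beside 6.22% of all tested genes). It measured 39.9, 6.79 and 5.88 FPKM in the IgG tumors and 36.3, 60.0 and 148 FPKM in the anti-PD-1 tumors. IgG replicate 1 was above anti-PD-1 replicate 1, so the groups overlapped. The log2(FPKM + 1) difference was 2.42 (SE 0.77, limma with Benjamini-Hochberg adjusted p = 0.355). The unadjusted call was lost without IgG replicate 2 (2.06), IgG replicate 3 (1.97) or anti-PD-1 replicate 3 (1.88). The difference was largest, at 3.25, without IgG replicate 1.

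Peg3 encodes a large zinc finger protein that represses transcription and is read from the paternal allele. Peg3 (ENSMUSG00000002265, 7:6703892-6730431, minus strand) starts 146 bases from Usp29, which is read from the other strand, and Meg3 (ENSMUSG00000021268, 12:109541001-109571726, plus strand) is the maternally expressed noncoding RNA of the Dlk1 domain. Their start windows are printed from RefSeq (GRCm38.p6) because they were the only members' windows with the palindrome TGACGTCA, the element bound by CREB and ATF factors, that 1.79% of all windows hold. The same 5 motifs stand in capitals. The Peg3 window is chr7:6730370-6730669, minus strand, and the Meg3 window is chr12:109540746-109541045, plus strand.
Peg3: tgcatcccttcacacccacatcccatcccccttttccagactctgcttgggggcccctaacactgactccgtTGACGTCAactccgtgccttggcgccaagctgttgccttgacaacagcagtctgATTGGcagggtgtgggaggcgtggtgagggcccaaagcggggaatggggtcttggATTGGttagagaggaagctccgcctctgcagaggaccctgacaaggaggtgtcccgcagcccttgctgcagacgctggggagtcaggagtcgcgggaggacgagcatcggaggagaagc
Meg3: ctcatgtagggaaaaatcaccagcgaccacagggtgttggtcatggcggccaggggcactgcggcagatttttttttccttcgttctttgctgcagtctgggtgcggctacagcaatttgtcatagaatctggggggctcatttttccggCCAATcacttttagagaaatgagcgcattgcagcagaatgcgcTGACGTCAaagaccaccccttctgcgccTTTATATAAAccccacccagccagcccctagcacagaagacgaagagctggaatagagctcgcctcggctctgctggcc
The Peg3 window also held CCAAT in reverse (37.4% of all windows hold it in either direction) 2 times, and it shares 263 bases with the window of Usp29. The Meg3 window held CCAAT 1 time and TATAAA once on each strand, in overlapping letters. Each of these windows held 13 CpG dinucleotides. The RefSeq table gave windows for 8 of the 10 members, all except H19 and Cdkn1c, and GGGCGG stood in 5 of the 8 (Igf2, Igf2r, Mest, Plagl1 and Grb10).

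Peg3 measured 6.42, 3.47 and 0.856 FPKM in the IgG tumors and 6.11, 6.19 and 6.17 FPKM in the anti-PD-1 tumors, on 281 to 2088 reads. The 3 anti-PD-1 tumors lay close together, whereas the IgG tumors ranged from the highest value of all 6, in replicate 1, to the lowest, in replicate 3. The means were 3.58 ± 2.79 and 6.16 ± 0.0432 FPKM (SD, n = 3), and the log2(FPKM + 1) difference was 0.86 (SE 0.46, 95% confidence interval -0.22 to 1.93, limma p = 0.102, exact permutation p = 0.4). Without IgG replicate 3 the difference was 0.31 (limma adjusted p = 0.657), and without IgG replicate 1 it was 1.31 and past the unadjusted threshold (limma adjusted p = 0.155). The pooled SD of Peg3 was at the 93.7 percentile of 3212 genes of like level. Usp29 (at most 0.112 FPKM) and Zim1 (at most 0.0552 FPKM), the next genes of this domain, were too low to be tested.

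**Figure D2:**
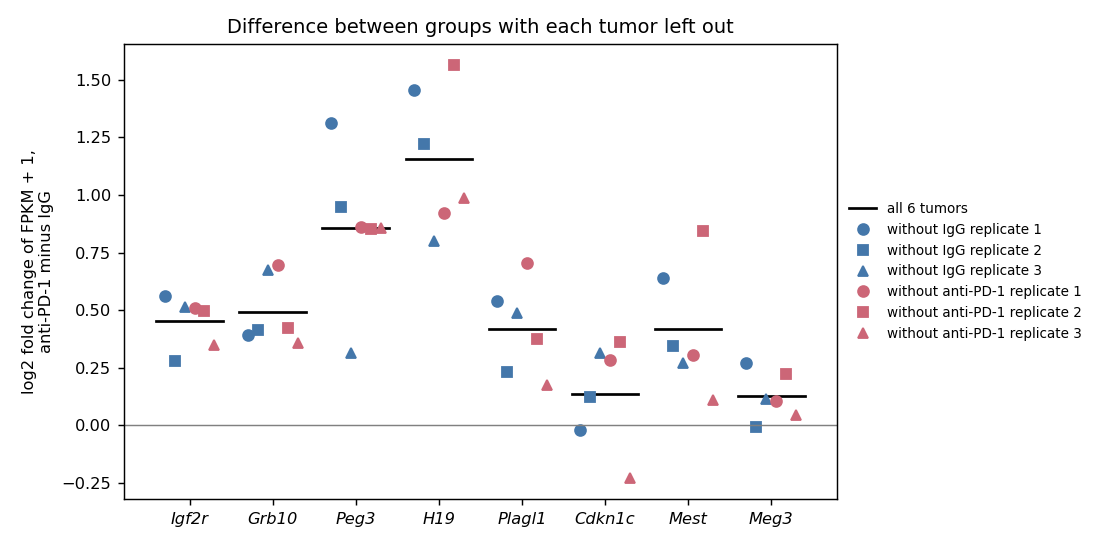
Difference in log2(FPKM + 1) between anti-PD-1 and IgG (y axis) for the 8 members tested (x axis), over all 6 tumors (black line) and with each tumor left out (points). Peg3 runs from 0.31 to 1.31 and H19 from 0.80 to 1.57, while Cdkn1c and Meg3 cross 0.

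Meg3 measured 0.765, 0.197 and 0.417 FPKM in the IgG tumors and 0.612, 0.374 and 0.754 FPKM in the anti-PD-1 tumors. The groups overlapped almost fully, and the mean of 0.520 FPKM was just above the limit for testing. The group means were 0.460 FPKM in IgG, under that limit, and 0.580 FPKM in anti-PD-1, above it. The log2(FPKM + 1) difference was 0.13 (SE 0.24, 95% confidence interval -0.43 to 0.69, limma adjusted p = 0.856), and -0.0087 without IgG replicate 2. On scales that compress low values less it was larger, at 0.37 with a pseudocount of 0.1 and 0.50 with voom (limma adjusted p = 0.705). Rian, the noncoding RNA downstream of Meg3, measured 1.09, 0.250 and 0.318 FPKM in the IgG tumors and 0.821, 0.281 and 0.698 FPKM in the anti-PD-1 tumors, with a difference of 0.07 that was negative without IgG replicate 2 (-0.069), IgG replicate 3 (-0.03) or anti-PD-1 replicate 1 (-0.03). Mirg, the last noncoding RNA of the domain, was at most 0.0976 FPKM.

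Dlk1, a membrane protein related to Notch ligands that holds back adipocyte differentiation, is the paternally expressed partner of Meg3. Dlk1 (ENSMUSG00000040856, 12:109452823-109463336, plus strand) measured 0.215, 0.0585 and 0.0215 FPKM in the IgG tumors and 0.131, 0.0362 and 0 FPKM in the anti-PD-1 tumors. These values stand for 27, 8 and 3 reads and for 19, 5 and 0 reads. IgG replicate 1 and anti-PD-1 replicate 1 held most of the 62 reads.

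Mest encodes a membrane enzyme of the alpha/beta hydrolase fold that is read from the paternal allele and rises when fat tissue expands. Mest (ENSMUSG00000051855, 6:30723547-30748465, plus strand) measured 1.15, 0.430 and 0.288 FPKM in the IgG tumors and 1.48, 0.177 and 2.25 FPKM in the anti-PD-1 tumors, on 17 to 212 reads. The anti-PD-1 group held both the lowest and the highest tumor. The log2(FPKM + 1) difference was 0.42 (SE 0.41, limma p = 0.338, exact permutation p = 0.5), and it ran from 0.11 without anti-PD-1 replicate 3 to 0.84 without anti-PD-1 replicate 2, where it passed the unadjusted threshold. With all 6 tumors it was 0.67 with a pseudocount of 0.1 and 0.71 with voom (limma adjusted p = 0.791). Copg2, which overlaps the end of Mest by 912 bases on the other strand, measured 15.0 to 18.9 FPKM, so that reads of that stretch cannot be told apart by gene.

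**Figure D3:**
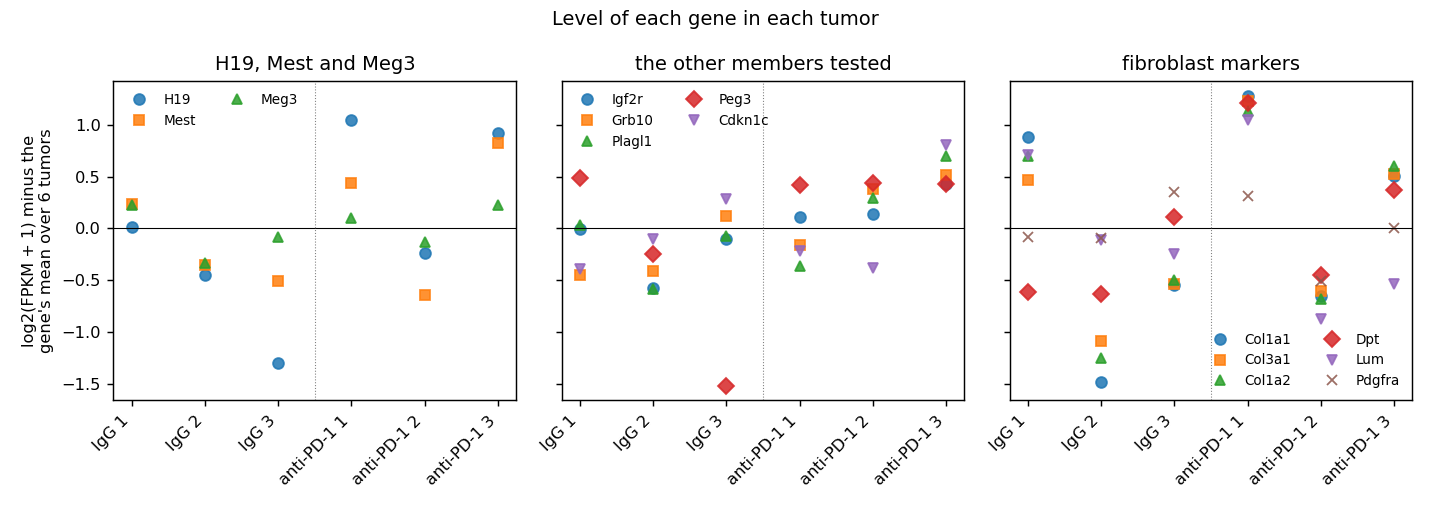
Level of each gene in each tumor (x axis) as log2(FPKM + 1) minus that gene's mean over the 6 tumors (y axis), for H19, Mest and Meg3 (left), the other 5 members tested (middle) and 6 fibroblast markers (right). H19, Mest, Meg3, Col1a1, Col1a2 and Col3a1 have their 3 highest values in IgG replicate 1, anti-PD-1 replicate 1 and anti-PD-1 replicate 3.

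A pattern across tumors that cuts through the groups was seen after the values were known. H19, Mest and Meg3 had the same 3 highest tumors, namely IgG replicate 1, anti-PD-1 replicate 1 and anti-PD-1 replicate 3, and Rian had them too. This held for 3 of the 8 members tested, 3 of the 31 other imprinted genes tested, 4 of the 11 IGF pathway partners tested and 829 of all 15069 tested genes (5.50%). The fibrillar collagen genes Col1a1, Col1a2 and Col3a1, made chiefly by fibroblasts, had the same 3 highest tumors, while the fibroblast markers Dpt, Lum and Pdgfra did not. The 6 fibroblast markers summed to 229, 66.1 and 105 FPKM in the IgG tumors and to 340, 90.4 and 200.2 FPKM in the anti-PD-1 tumors, and 0 of the 6 were called between the groups. Their part in the levels of H19, Mest and Meg3 was not tested.

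H19 was the only member whose log2(FPKM + 1) values spanned at least 2 over the 6 tumors, at 2.35, with Peg3 just under this limit (1.9999). Of 11061 genes other than the members with a mean of at least 2 scaled FPKM, those with the most similar centred log2(FPKM + 1) values over the 6 tumors were St6gal1 (root mean square difference 0.17), Tnfrsf12a (0.25) and St3gal4 (0.26). St6gal1, which adds sialic acid to glycoproteins, measured 12.6, 7.03 and 4.15 FPKM in the IgG tumors and 21.6, 11.8 and 20.8 FPKM in the anti-PD-1 tumors. Among the members themselves, Mest (0.45) and Peg3 (0.48) were nearest to H19.

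Of 62 other imprinted genes, 31 were tested, and 1 was higher and 2 were lower in anti-PD-1 at an unadjusted limma p under 0.05 (beside 6.22% and 6.05% of all tested genes). Their median log2(FPKM + 1) difference was 0.07, with 18 positive and 13 negative. The groups did not overlap for 3 higher genes (Tssc4, Nap1l4 and Trappc9) and 2 lower genes (Qpct and Copg2), beside 9.3% and 8.75% of all tested genes, and those of them not called are named here after their values were seen. The 1 gene called higher was Ins2, an insulin gene next to Igf2. It was at 0 FPKM in 4 tumors and at 3.93 and 3.29 FPKM in anti-PD-1 replicates 2 and 3, on 126 and 103 reads (limma adjusted p = 0.390). Ins2 thus reached the limit for testing only through the group where it was higher. Its call was kept without anti-PD-1 replicate 1 and lost with any other tumor left out, and also with a pseudocount of 0.1, with no filter on low FPKM and with voom. Qpct, which forms N-terminal pyroglutamate on peptides, measured 3.07, 6.21 and 2.17 FPKM in the IgG tumors and 1.46, 0.758 and 1.45 FPKM in the anti-PD-1 tumors. Every IgG tumor was above every anti-PD-1 tumor, and the log2(FPKM + 1) difference was -1.05 (SE 0.33, limma with Benjamini-Hochberg adjusted p = 0.355). Without anti-PD-1 replicate 2 it was -0.88 and no longer called. Pon3, a lactonase gene near Peg10, had a difference of -1.24 (limma adjusted p = 0.387) with overlapping groups. It was -0.72 without IgG replicate 3, and the call was lost there and without IgG replicate 2 (-1.24), anti-PD-1 replicate 2 (-1.08) or anti-PD-1 replicate 3 (-1.24), and also with no filter on low FPKM.

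Among the partners of the IGF pathway (Igf1, receptors, receptor substrates, IGF-binding proteins and Igf2 mRNA-binding proteins), the calls were in the lower direction. Of 15 listed, 11 were tested, and 0 were higher and 3 were lower in anti-PD-1 at an unadjusted limma p under 0.05, all 3 without overlap of the groups (beside 6.05% of all tested genes called lower and 8.75% lower without overlap). Igfbp5, a secreted IGF-binding protein of the mammary gland, measured 1586, 2784 and 1757 FPKM in the IgG tumors and 821, 722 and 1020.5 FPKM in the anti-PD-1 tumors. Its lowest IgG tumor was well above its highest anti-PD-1 tumor, and the log2(FPKM + 1) difference was -1.23 (SE 0.30, limma with Benjamini-Hochberg adjusted p = 0.344).

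Irs1, the substrate through which the IGF and insulin receptors reach PI3 kinase, measured 10.4, 10.7 and 11.6 FPKM in the IgG tumors and 5.77, 8.57 and 6.90 FPKM in the anti-PD-1 tumors, a log2(FPKM + 1) difference of -0.57 (SE 0.17, limma adjusted p = 0.347). The IgG tumors were tightly grouped and all above the anti-PD-1 tumors. Irs2, its relative, measured 17.7, 14.7 and 23.4 FPKM in the IgG tumors and 14.4, 7.85 and 13.1 FPKM in the anti-PD-1 tumors, a difference of -0.63 (limma adjusted p = 0.405). Irs2 lost its call without IgG replicate 1 (-0.65), IgG replicate 3 (-0.46), anti-PD-1 replicate 2 (-0.39) or anti-PD-1 replicate 3 (-0.72). It also lost it with eBayes without the trend. With no filter on low FPKM, Irs1 was the 1 of these 3 genes still called. The median difference over the 11 partners tested was 0.01, equal at this rounding to that of all genes.

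Among 13 factors that set or keep imprints, 10 were tested, with 0 higher and 1 lower in anti-PD-1 at an unadjusted limma p under 0.05 (beside 6.05% of all tested genes lower). The groups did not overlap for 1 higher gene (Trim28) and 2 lower genes (Zfp445 and Tet3), beside 9.3% and 8.75% of all tested genes. The gene called was Zfp445, a KRAB zinc finger protein that keeps imprints methylated, at 11.7, 18.9 and 21.01 FPKM in the IgG tumors and 9.45, 8.31 and 8.19 FPKM in the anti-PD-1 tumors. All IgG tumors were above all anti-PD-1 tumors, with a log2(FPKM + 1) difference of -0.88 (SE 0.23, limma with Benjamini-Hochberg adjusted p = 0.344). Zfp445 lies on chromosome 9, where the median difference of the 798 tested genes was -0.36, and the part of the chromosome in its difference was not tested. The chromosomes that carry the members (6, 7, 10, 11, 12 and 17) had medians between 0.01 and 0.08.

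**Figure D4:**
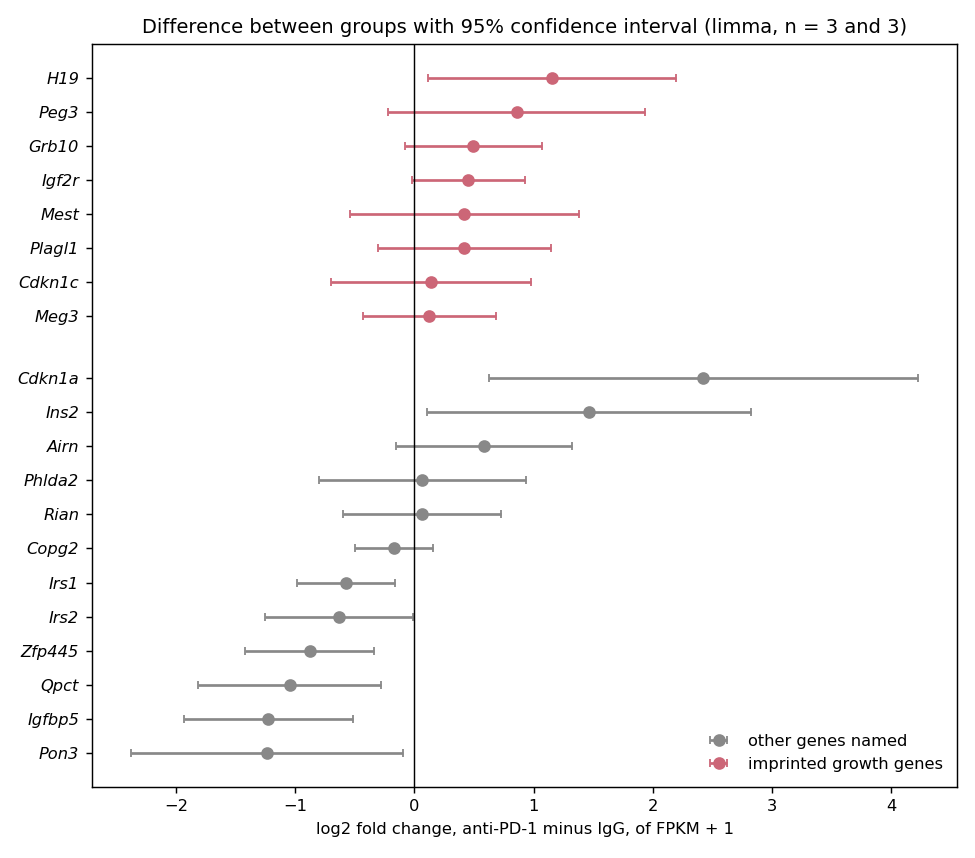
Difference in log2(FPKM + 1) between anti-PD-1 and IgG (x axis, limma estimate and 95% confidence interval, n = 3 per group) for the 8 members tested (red) and for the other genes named (grey). All 8 members lie right of 0 and only the interval of H19 (0.12 to 2.20) leaves 0 out, while Igfbp5, Irs1, Irs2, Zfp445, Qpct and Pon3 lie left of 0.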

How the data were processed

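RNAseq of 3 IgG and 3 anti-PD-1 tumors was re-analysed from the FPKM values that the authors deposited, 1 table per tumor. The submitters' processing notes name FastQC 0.11.9, cutadapt 3.5, Bowtie2 2.4.1, RSEM 1.3.1, DESeq2 1.36.0, R 4.1 and mm10. How the FPKM was made is not given in the sources used here. Of 54532 IDs, 54495 matched the GRCm38 annotation (GENCODE M21), and 97.0% to 97.3% of values above 0 fell within 0.1 of whole reads.

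The log2 of scaled FPKM plus 1 was taken, after division by median-of-ratios factors. For genes with a mean of at least 0.5 FPKM, limma 3.58.1 was run under R 4.3.3 (eBayes with trend, two-sided). Python 3.11.15 with pandas 2.3.3, numpy 2.4.6, scipy 1.17.1 and matplotlib 3.10.9 served for the rest, and the fit was tested on simulated data. Alternatives were another pseudocount, filter or normalization, eBayes without trend, voom on recovered reads, a replicate block, and each tumor left out.

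The members and lists were chosen with earlier results of these data known. Besides the members, genes were named when called at an unadjusted p under 0.05 in a list, as direct neighbours, or as the 3 most like a member spanning at least 2 (log2). Reads shared with overlapping genes or near-identical copies could not be separated.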

Additional observations from a re-analysis of the deposited data

How the results depend on the processing

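Of the 14 alternatives, H19 kept an unadjusted p under 0.05 in 9, and over all 14 its difference ran from 0.80 to 1.66 and its adjusted p from 0.186 to 0.760. The number of members called at the unadjusted level, 1 in the report, was 0 with no filter on low FPKM and from 0 to 3 with single tumors left out: H19, Igf2r and Peg3 without IgG replicate 1, Grb10 without IgG replicate 3, Plagl1 and Grb10 without anti-PD-1 replicate 1, H19 and Mest without anti-PD-1 replicate 2, and none without IgG replicate 2 or anti-PD-1 replicate 3. The other imprinted genes called went from 3 to between 1 and 4. Over all genes, 1848 calls at the unadjusted level became 961 without IgG replicate 2, 1158 without anti-PD-1 replicate 3 and 2679 without IgG replicate 1. Calls at an adjusted p under 0.05, 0 in the report, ran from 0 to 12, with 12 without IgG replicate 1, 1 without IgG replicate 3 and 1 with voom on recovered reads. The median difference of the tested members kept its sign throughout, from 0.26 to 0.60.

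Of the values of single genes under these alternatives, 266 kept their direction and 9 reversed, all with a tumor left out. Of 125 values for genes called at the unadjusted level in the report, 96 stayed called and 29 did not. The genes that reversed, each with its highest value when a tumor was left out, were Cdkn1c (-0.23 without anti-PD-1 replicate 3 and -0.02 without IgG replicate 1, up to 0.36), Meg3 (-0.0087 without IgG replicate 2, up to 0.27), Rian (-0.069, -0.03 and -0.03 without IgG replicate 2, IgG replicate 3 and anti-PD-1 replicate 1, up to 0.30) and Phlda2 (-0.02, -0.03 and -0.31 without IgG replicate 1, IgG replicate 2 and anti-PD-1 replicate 3, up to 0.41). With the replicate block, 2 members were called, H19 (limma adjusted p = 0.415) and Grb10 (limma adjusted p = 0.419). Whether the labels' replicate numbers pair the tumors was not settled. Deviations from the group means correlated at -0.16, 0.01 and 0.19 within the numbers, and at -0.26 to 0.24 across unlike numbers. With 3 tumors in each group, such correlations cannot decide it. Why these values moved was not tested. Igf2 and Dlk1 had few reads, and Meg3, Mest and Cdkn1c rested on at most 326, 212 and 124 reads in any tumor. The part of depth in their spread was not tested.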
